A study of Caenorhabditis elegans with 12 samples.

Results

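Among the 3483 alternative 3′ splice site events listed over 12 libraries of Caenorhabditis elegans L3 larvae, 369 joined 1 donor to acceptors lying 10, 11, 13, 14, 16 or 17 nt apart. These events were chosen by distance alone. None of these distances is a multiple of 3, so in a coding exon the choice of acceptor shifts the reading frame of everything downstream. By distance, 129 pairs lay 10 nt apart, 104 lay 11 nt apart, 55 lay 13 nt apart, 34 lay 14 nt apart, 29 lay 16 nt apart and 18 lay 17 nt apart. They occupied 349 loci on all 6 chromosomes listed, 196 on the plus and 173 on the minus strand.

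The libraries came from whole larvae grown for 34 hours at 20 °C and formed 4 groups of 3, with ribosomal RNA removed before paired sequencing of 150 nt reads. Wild-type N2 was sequenced in 2 sets, named here N2 az02 and N2 az04 after the library numbers. The first set was numbered together with strain DG3430, which carries sacy-1(tn1385), and the second with strain SZ454, which carries mog-5(az192). Each mutation is represented by 1 strain, and the labels name no further allele or treatment. Nothing in the labels ties the 3 libraries of a group to separate cultures, so the p-values given here describe spread between libraries and that spread may be technical. The files held no level per gene, so neither the mutated genes nor the stage could be checked against them.

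Splicing removes an intron between a donor at its 5′ end and an acceptor at its 3′ end, and the acceptor ends in an AG that is recognised after the branch point. When AGs stand close together, the spliceosome can cut at either of them, and RNA helicases such as PRP22 are known from yeast to reject poor substrates late in the reaction and to release the finished mRNA. MOG-5 is the worm PRP22, and SACY-1 corresponds to DDX41 in humans, a helicase of the DEAD-box family also found in spliceosomes. An acceptor that shifts the frame often brings in an early stop codon, and mRNAs of that kind are in general targets of nonsense-mediated decay. By its title, the series is about the part of both helicases in proofreading against the proximal acceptor, the one nearer to the donor.

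The deposited values were the authors' per mille scores of each form, from which the use of the upstream acceptor was computed in percent. The upstream form has the shorter intron, and the stretch between both acceptors is exon in that form and intron in the other. All 12 libraries listed 359 of the 369 pairs, and the other 10 were listed in 5 to 11. Read depth was unknown. Of the 4403 values of these pairs, 1120 stood at exactly 0.1% and 206 at exactly 99.9%, with 24 below and 14 above these limits. What sets these values is not given in the sources used here, and counts at 0.1% below take in the few lower values. Because whole larvae were used, a change within cells and a change in the share of tissues that splice a pair differently cannot be told apart.

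In wild type these pairs were mostly spliced at the downstream acceptor. Over the 359 pairs listed in every library, 249 had a mean upstream use below 5% in N2 az02 and 243 in N2 az04. A second, smaller class was spliced almost wholly upstream, with 60 pairs at 75% or more in each set. The median upstream use was 0.37%, 0.9% and 0.37% in the N2 az02 libraries and 1.03%, 0.82% and 0.9% in those of N2 az04. In sacy-1 it was 4.08%, 3.7% and 3.38%, and in mog-5 it was 2.46%, 3.17% and 1.89%. Every mutant library thus had a higher median than every wild-type library.

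The means gave the same order. Mean upstream use over these pairs was 20.1% ± 0.26 (SD, n = 3) in N2 az02 and 23.9% ± 0.12 in sacy-1, and it was 20.6% ± 0.22 in N2 az04 against 22.5% ± 0.37 in mog-5. The lowest sacy-1 library, at 23.8%, lay above the highest N2 az02 library, at 20.4%, and the lowest mog-5 library, at 22.3%, above the highest N2 az04 library, at 20.8%. In the 3 sacy-1 libraries 93, 91 and 89 pairs lay between 5% and 50%, against 37, 40 and 45 in N2 az02. In mog-5 it was 72, 78 and 72, against 51, 44 and 52 in N2 az04. Pairs at 50% or more numbered 78, 85 and 80 in sacy-1 and 77, 74 and 73 in N2 az02, a much smaller gap.

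**Figure D1:**
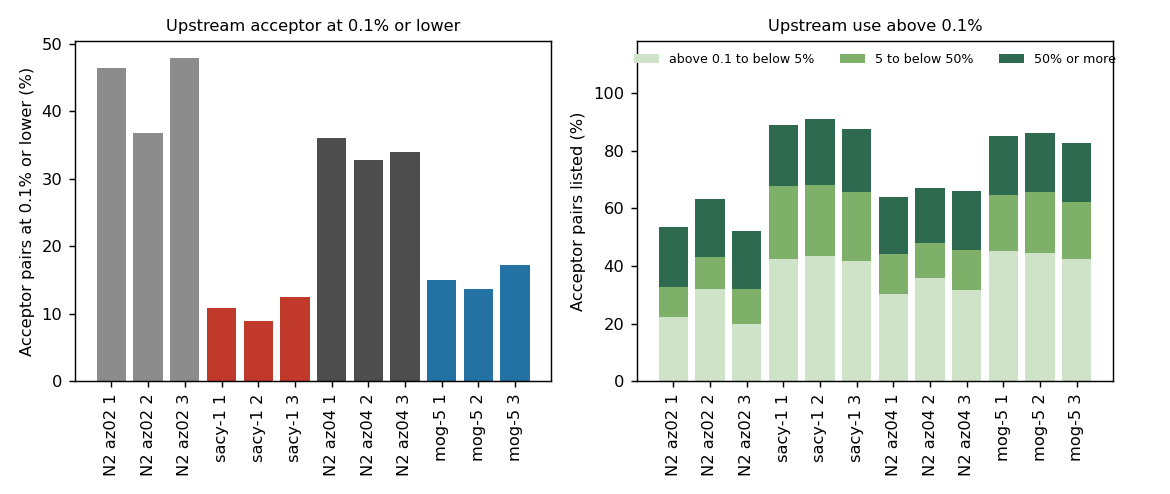
For each of the 12 libraries, the left bars give the share of listed acceptor pairs whose upstream use stood at 0.1% or lower, and the right stacked bars give the shares in 3 higher bands of upstream use. The 0.1% share is 36.7% to 48% for N2 az02 against 8.94% to 12.5% for sacy-1, and 32.8% to 36% for N2 az04 against 13.7% to 17.2% for mog-5.

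At the bottom of the scale, fewer upstream acceptors stood at 0.1% in the mutants. In N2 az02, 170, 134 and 176 pairs stood at 0.1%, against 40, 33 and 46 in sacy-1. In N2 az04 it was 132, 120 and 125 pairs, against 55, 50 and 63 in mog-5. The N2 and mutant libraries did not overlap in this count. The same drop was seen outside these pairs. Over all alternative 3′ events the share at 0.1% was 18.9% to 25.3% for N2 az02 against 5.45% to 7.85% for sacy-1, and for the in-frame pairs 20.5% to 25.4% against 4.9% to 7.18%.

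Pair by pair, 51 of 362 pairs stood at 0.1% in all 3 N2 az02 libraries and above it in all 3 sacy-1 libraries, and the reverse was seen in 0. Over all events of the catalogue the first pattern was seen in 4.22% and the reverse in 0.0986%. These pairs also stood at 0.1% more often to begin with, 76 of 362 throughout N2 az02 against 328 of 5069 events. Of those 76 pairs 51 stood above it throughout sacy-1, as did 214 of the 328 events and 211 of 310 such alternative 3′ events. The first pattern, given a start at 0.1%, was thus about as common elsewhere. Mean use in sacy-1 over those 51 pairs ranged from 0.187% to 20.8%, with a median of 2.12%. The count was the same when values below 0.1% were not taken in. Against N2 az04, 22 of 363 pairs showed the first pattern in mog-5 (21 without lower values) and 0 the reverse, with 1.22% and 0.0967% over the catalogue. Throughout N2 az04, 71 pairs stood at 0.1%, against 272 of 5172 events, of which 63 stood above it throughout mog-5. Between the wild-type sets 9 of 363 pairs stood at 0.1% in N2 az02 and above it in N2 az04, with 0.981% over the catalogue. Only 29 of the 51 sacy-1 pairs and 14 of the 22 mog-5 pairs stood at 0.1% in all 6 N2 libraries.

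How often a value lands on 0.1% can depend on depth, whose part in these counts was not tested. Alternative 5′ splice site events were scored in the same libraries, but their median use in N2 az02 was 49.1%, so they do not measure what depth does to pairs near 0.1%. Of these, 8.87% to 14.6% stood at 0.1% in the N2 az02 libraries against 8.94% to 10.4% in sacy-1. The N2 az04 libraries had 6.34% to 11.2% there against 7.57% to 8.36% in mog-5. Of 1699 such events 3 stood at 0.1% throughout N2 az02 and above it throughout sacy-1, and 3 did the reverse.

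Upstream use was compared between groups with limma on the percentages, fitted on all events of the catalogue, and for a call the groups had to differ by 15 percentage points or more with an adjusted p below 0.05. In sacy-1 larvae 13 of 362 tested frame-shifting pairs were called, and in all 13 upstream use rose. That is 3.59% of the pairs. Over all events tested 6.33% were called, 6.17% upstream and 0.158% downstream. These events take in 1699 alternative 5′ events, for which upstream stands only for the form with the shorter intron. Of those, 0.471% were called and 51.3% were higher in sacy-1, which lowers both shares over all events. In mog-5 and between the N2 sets 50.1% and 50.2% of alternative 5′ events were higher, with the same effect on the shares higher. The median difference over the pairs was 1.62 points, above the 1.02 of all events but below the 1.94 of all alternative 3′ events and the 2.5 of in-frame pairs 12, 15 or 18 nt apart. Without a minimum difference 30 pairs passed.

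Direction was more even than size. Mean upstream use was higher in sacy-1 than in N2 az02 for 314 of the 362 pairs, lower for 45 and equal for 3, so 86.7% were higher, against 69.4% over all events tested. Among alternative 3′ events the share was 78.5%, with 82.7% for frame-shifting pairs 7 or 8 nt apart and 81.6% for the in-frame pairs. These pairs started lower, with a median N2 az02 use of 1% against 18.2% over all events. At 0.1% in all 3 N2 az02 libraries stood 76 of the 362 pairs, with almost no room to fall. Shares higher and counts downstream are therefore not like for like with all events. At an unadjusted p below 0.05, 88 pairs leaned upstream and 0 downstream, against 19.5% and 2.27% of all events. The upstream share, 24.3%, was near the 27.5% of all alternative 3′ events and is no feature of these pairs. In 122 pairs the 3 sacy-1 libraries all lay above the 3 N2 az02 libraries, and in 0 all lay below, where all events gave 25.4% and 3.67%. The upstream share of 33.7% was near the 35% of all alternative 3′ events.

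In mog-5 the same lean was smaller. Here 2 of 363 pairs were called, both with a rise in upstream use, against 1.3% of all events tested. Mean upstream use was higher in mog-5 for 290 pairs, lower for 61 and equal for 12, so 79.9% were higher, against 67% over all events, 75.6% of alternative 3′ events and 83.4% of the in-frame pairs. At an unadjusted p below 0.05, 70 pairs leaned upstream and 0 downstream, against 13.7% and 1.66% of all events. That upstream share, 19.3%, was near the 18.7% of alternative 3′ events. All 3 mog-5 libraries lay above those of N2 az04 in 96 pairs and below them in 1, against 18.7% and 2.82% of all events. The median difference was 0.72 points, below the 1.02 of alternative 3′ events. Since 71 pairs stood at 0.1% throughout N2 az04, the shares higher and counts downstream have the same limit as in sacy-1.

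The comparison of both wild-type sets showed little lean over these pairs. On the percentages and after an arcsine square root transform alike, limma called 0 of 363 pairs, against 0.0392% of all events tested. Mean upstream use was higher in N2 az04 for 169 pairs, lower for 151 and equal for 43, so 46.6% were higher, against 57.6% over all events. At an unadjusted p below 0.05, 15 leaned upstream and 3 downstream, against 10.7% and 2.59% of all events. The groups did not overlap in 27 pairs with N2 az04 above and in 6 with it below, against 13.8% and 3.9%. Alternative 3′ events as a whole did lean upstream between the N2 sets, the direction seen in both mutants, with 61.3% higher. Of 3385 such events tested, 476 leaned upstream and 64 downstream at an unadjusted limma p below 0.05. Mean use over the pairs tested was 20.1% in N2 az02 and 20.9% in N2 az04.

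**Figure D2:**
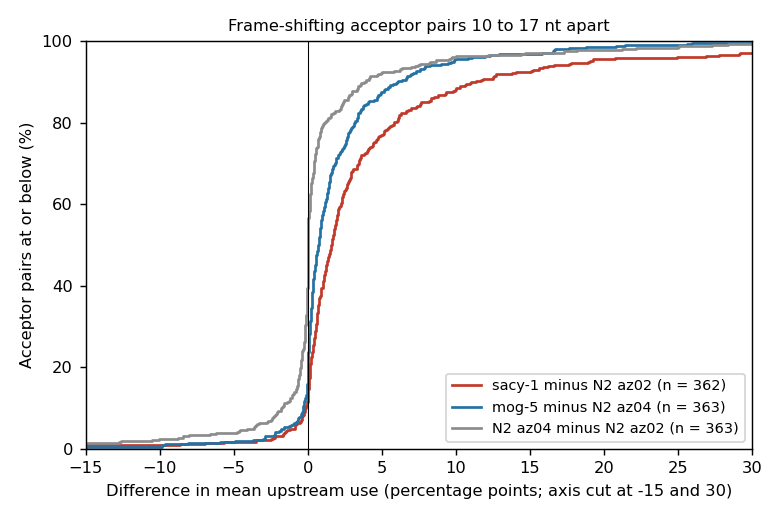
Cumulative share of the acceptor pairs (vertical axis, percent) at or below a given difference in mean upstream use (horizontal axis, percentage points) for the 3 comparisons. The wild-type curve crosses 0 near the middle, with a median of 0 points, and both mutant curves lie to its right, with medians of 1.62 points for sacy-1 and 0.72 points for mog-5.

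The largest called rise was at A3.03323, the catalogue's name for a pair 10 nt apart on chromosome X, plus strand, at 11080796 to 11081105 of genome build ce10. Its acceptors, given as the first exonic base, are 11080953 and 11080963, and the upstream form has an intron of 46 nt. Upstream use was 0.1%, 6.25% and 7.14% in N2 az02 and 57.1%, 66.7% and 33.3% in sacy-1. It was 2.86%, 3.92% and 0.1% in N2 az04 and 15.8%, 18.2% and 23.1% in mog-5. No mutant library overlapped its wild-type set, and the upstream form went from rare to about as common as the downstream one in sacy-1. Values such as 33.3% and 66.7% can arise from few reads, and depth at this pair is unknown, so the sacy-1 level is loose. The rise was 47.9 points in sacy-1 (SE 9.31, limma adjusted p = 0.0436) and 16.7 points in mog-5 (SE 2.26, limma adjusted p = 0.0436).

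Both calls at A3.03323 depended on single libraries. The sacy-1 call was lost without sacy-1 replicate 1 (45.5 points) or 2 (40.7), and without N2 az02 replicate 1 (45.7), 2 (48.8) or 3 (49.2). The mog-5 call was lost with any library left out, at 14.7 to 18.3 points, and also after an arcsine square root transform, in 1 fit of all 12 libraries and against N2 az02 (14.5 points).

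The other pair called in both mutants, A3.02895, was the reverse case, a pair for which wild type already favoured the upstream acceptor. It lies on chromosome V, plus strand, at 18232805 to 18233141, with acceptors 13 nt apart at 18232992 and 18233005 and an upstream intron of 41 nt. Upstream use was 52.2%, 60% and 53.3% in N2 az02 and 99.9% in each sacy-1 library. In N2 az04 it was 64.3%, 67.3% and 70.4%, and in mog-5 it was 90.3%, 91.4% and 97.1%. The downstream form thus stood at the limit value in sacy-1 and was a minor form in mog-5. The rise was 44.7 points in sacy-1 (SE 2.26, limma adjusted p = 0.000818), a call kept when any 1 of the 6 libraries was left out. In mog-5 it was 25.6 points (SE 2.56, limma adjusted p = 0.0227), lost without mog-5 replicate 1 (26.9 points) or 2 (26.4) and without N2 az04 replicate 1 (24.1), 2 (25.6) or 3 (27.1).

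Several pairs 11 nt apart went from a minor to a near-equal upstream form in sacy-1. A3.01101, on chromosome II, plus strand, at 13387349 to 13388555, has acceptors at 13388398 and 13388409 behind a long intron of 902 nt. Its upstream use was 10.4%, 14.3% and 6.9% in N2 az02 and 45.6%, 52.1% and 51.3% in sacy-1. In N2 az04 it was 28.4%, 12% and 20.3%, and in mog-5 it was 45.2%, 48% and 45.4%. Both mutants lay above their wild type in every library, and the N2 sets overlapped. The rise was 39.1 points in sacy-1 (SE 2.73, limma adjusted p = 0.00213) and held with each library left out, while the difference of 25.9 points in mog-5 did not pass (SE 4.45, limma adjusted p = 0.0745). The mog-5 difference did pass with the 5% to 95% filter (adjusted p = 0.0488), in 1 fit of all 12 libraries (0.00763), against N2 az02 (35.6 points, 0.00592) and against all 6 N2 libraries (30.8 points, 0.00683).

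A3.02738, on chromosome V, plus strand, at 12045699 to 12046045, has acceptors at 12045888 and 12045899. Upstream use was 0.1%, 14.5% and 11.1% in N2 az02 against 48.7%, 37.5% and 45.6% in sacy-1, groups that lay well apart. The rise was 35.4 points (SE 5.04, limma adjusted p = 0.0176), lost without sacy-1 replicate 1 (33 points) or 3 (34.5) or N2 az02 replicate 3 (36.7). In mog-5 it was 22.5%, 38.7% and 18.6% against 16.5%, 10.7% and 19.4% in N2 az04, and these groups overlapped (limma adjusted p = 0.507).

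A3.01649 lies on chromosome III, plus strand, at 9623548 to 9623897, with acceptors at 9623741 and 9623752. Upstream use was 11.5%, 16.1% and 18.1% in N2 az02 and 43.9%, 58.3% and 40% in sacy-1. It was 17.4%, 17.9% and 17.3% in N2 az04 and 27.3%, 43% and 38.7% in mog-5, so both mutants lay above their wild type in every library. The sacy-1 rise of 32.2 points (SE 5.42, limma adjusted p = 0.029) was lost without sacy-1 replicate 1 (33.9 points) and without N2 az02 replicate 1 (30.3), 2 (32.7) or 3 (33.6). The mog-5 difference of 18.8 points did not pass (SE 4.35, limma adjusted p = 0.141), but did without mog-5 replicate 1 (23.3 points) and against all 6 N2 libraries (19.9 points).

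A3.00091, on chromosome I, plus strand, at 3355095 to 3355410, has acceptors at 3355253 and 3355264. Upstream use rose from 3.33%, 3.03% and 6.9% to 26.1%, 36.7% and 37.9% in sacy-1, by 29.1 points (SE 3.64, limma adjusted p = 0.0119). The call was lost without N2 az02 replicate 1 (28.6 points) or 2 (28.4). In mog-5 it was 10.4%, 10.5% and 14.5% against 4.55%, 1.15% and 0.1%, apart in every library but without a call (9.89 points, limma adjusted p = 0.083). A3.02470, on chromosome V, minus strand, at 6258761 to 6259110, was named after its values were seen, as the thirteenth call. It rose from 0.1%, 2.39% and 1.81% to 18%, 17.1% and 16.9%, by 15.9 points (SE 0.787, limma adjusted p = 0.000764), and fell short of the minimum against N2 az04 (12.1 points) and against all 6 N2 libraries (14 points).

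At a distance of 13 nt the second call was A3.00872 on chromosome II, minus strand, at 8182430 to 8182883, with acceptors at 8182587 and 8182574. Upstream use was 22.7%, 34.8% and 29.4% in N2 az02 and 59.2%, 63.9% and 63.3% in sacy-1, a rise of 33.2 points (SE 3.5, limma adjusted p = 0.00711). The N2 az04 libraries stood at 57.4%, 33.9% and 47.5%, below every sacy-1 library but mostly above the N2 az02 libraries, and mog-5 at 47.4%, 66.2% and 45.3% overlapped them. Against N2 az04 the sacy-1 difference was 15.9 points (adjusted p = 0.25), and against all 6 N2 libraries 24.5 points (adjusted p = 0.067), so the call rested on N2 az02.

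The remaining calls were pairs 10 nt apart whose upstream acceptor was used at under 3% in every N2 az02 library. A3.00171, on chromosome I, minus strand, at 5302504 to 5302814, rose from 0.45%, 2.71% and 1.13% to 19.5%, 18.5% and 19.7% in sacy-1, by 17.8 points (SE 0.8, limma adjusted p = 0.000588). In mog-5 it was 5.71%, 10% and 5.79%, overlapping N2 az04 at 6.48%, 2.56% and 4.01%. Against N2 az04 the sacy-1 difference was 14.9 points, just under the minimum. A3.00971, on chromosome II, minus strand, at 10763151 to 10763785, behaved alike, with 2.17%, 0.1% and 2.86% in N2 az02 and 16.4%, 20.9% and 17.6% in sacy-1 (16.6 points, SE 1.5, limma adjusted p = 0.00434). Its mog-5 libraries stood at 3.61%, 5.48% and 2.69%, above 2.05%, 1.38% and 0.63% in N2 az04 but without a call (2.57 points, adjusted p = 0.271). Both sacy-1 calls held with each library left out.

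On chromosome X, the upstream acceptors of A3.03285 (plus strand, 10179569 to 10179882) and A3.02994 (plus strand, 2014571 to 2014864) were at 0.1% in all 6 N2 libraries. The first stood at 12.5%, 25% and 25% in sacy-1 (20.7 points, limma adjusted p = 0.0377) and at 3.33%, 2.94% and 5.26% in mog-5 (3.74 points, adjusted p = 0.0901). The second stood at 25%, 12.5% and 20% in sacy-1 (19.1 points, limma adjusted p = 0.0328) and at 4%, 0.1% and 8.7% in mog-5 (4.17 points, adjusted p = 0.502). Sacy-1 thus exceeded every mog-5 library at both. With an SD of 0 in wild type, these p-values leaned on the spread of other events. Values such as 12.5%, 20% and 25% can arise from few reads, and depth at both pairs is unknown. The A3.03285 call was lost without sacy-1 replicate 2 or 3 (18.6 points each) or any 1 N2 az02 replicate (20.7 each), and the A3.02994 call without sacy-1 replicate 1 (16.1) or 3 (18.6) or any 1 N2 az02 replicate (19.1 each).

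The last call was A3.02987, which spans 1400339 to 1401375 of chromosome X on the minus strand. It stood at 0.1% in the 3 N2 az02 libraries and at 22.2%, 14.3% and 12.5% in sacy-1 (16.2 points, limma adjusted p = 0.0301). It was not low in the other wild-type set, where it stood at 5.26%, 8.33% and 16.7%, and mog-5 at 4.35%, 20.6% and 16.7% overlapped that set. Against N2 az04 the sacy-1 difference was 6.25 points (adjusted p = 0.47), and against all 6 N2 libraries 11.2 points (adjusted p = 0.14). The call was also lost without sacy-1 replicate 1 (13.3 points) or 2 (17.3) or any 1 N2 az02 replicate (16.2 each). Its N2 az02 values did not vary, so this p-value too leaned on the spread of other events. Values such as 12.5% and 14.3% can arise from few reads, and depth at this pair is unknown.

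**Figure D3:**
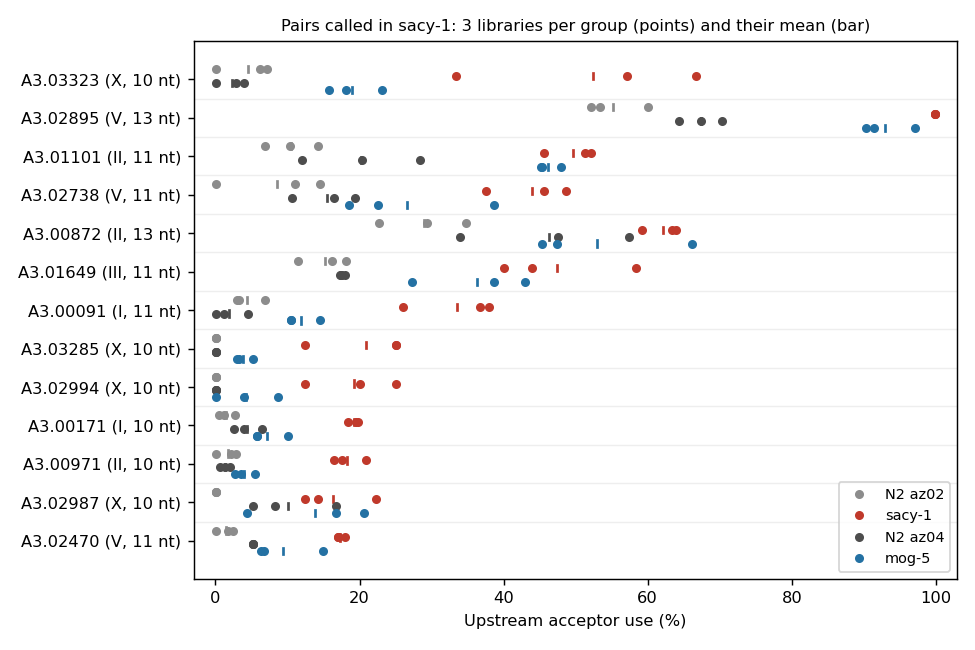
Upstream acceptor use (horizontal axis, percent) of the 13 acceptor pairs called in sacy-1, each row with its chromosome and the distance between its acceptors. Points are the 3 libraries of each group and short bars their means. The sacy-1 points lie to the right of the N2 az02 points in all 13 rows, from a difference of 47.9 points at the top to 15.9 points at the bottom.

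The largest difference of all did not pass the test. A3.00696, a pair 11 nt apart on chromosome II, minus strand, at 4819964 to 4820290, has acceptors at 4820105 and 4820094. Upstream use was 50%, 33.3% and 0.1% in N2 az02 and 83.3%, 93.3% and 87.5% in sacy-1, and 33.3%, 75% and 50% in N2 az04 and 99.9%, 91.7% and 90% in mog-5. Both mutants lay above their wild type in every library, by 60.2 points (limma adjusted p = 0.0681) and 41.1 points (adjusted p = 0.201), but the wild-type libraries differed widely. In sacy-1 it would be called without N2 az02 replicate 3 (46.4 points), and with the fit held to alternative 3′ events, to events of 5% to 95% mean use or to all 12 libraries at once.

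At 14, 16 and 17 nt no pair was called in sacy-1 or mog-5. The largest sacy-1 difference at 14 nt was at A3.02359 on chromosome V, with 0.1%, 0.1% and 20% in N2 az02 and 16.7%, 33.3% and 15.4% in sacy-1 (15.1 points, limma adjusted p = 0.383). At 16 nt it was A3.02478 on chromosome V, with 0.1% in each N2 az02 library and 33.3%, 60% and 0.1% in sacy-1 (31 points, adjusted p = 0.359). Its N2 az04 libraries stood at 99.9%, 0.1% and 99.9%, so it varied as much between wild-type libraries as a pair can. At 17 nt it was A3.01265 on chromosome III, with 6.9%, 11.1% and 18.2% in N2 az02 and 29.2%, 22.9% and 11.9% in sacy-1 (9.27 points, adjusted p = 0.438). The groups overlapped at all 3 pairs.

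The size of the sacy-1 difference varied with distance, though its order depended on the measure. The mean difference was 3.97 points at 10 nt (128 pairs tested), 5.44 at 11 nt (101) and 4.58 at 13 nt (55). It was 1.39 at 14 nt (32), 1.98 at 16 nt (28) and 1.73 at 17 nt (18). The 3 sacy-1 libraries ranged from 3.8 to 4.06 points above the N2 az02 mean at 10 nt and from -0.692 to 3.23 points at 14 nt, so the values at 14, 16 and 17 nt are loose. In mog-5 the means were 2.15, 2.3, 2.21, 2.05, -0.398 and 1.15 points in the order of distance. The sacy-1 medians were 2.09, 1.91, 0.91, 1.51, 0.62 and 0.61 points in the same order, so the pairs 14 nt apart lay above those 13 nt apart by the median and below them by the mean. Upstream use was higher in sacy-1 for 91.4%, 87.1%, 85.5%, 90.6%, 75% and 66.7% of the pairs.

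By the mean, but not throughout by the median, the distances of 9, 12 and 15 nt, which keep the frame, lay above these ones. The mean sacy-1 difference was 12.9 points at 9 nt, 10.6 at 12 nt and 8.48 at 15 nt, each above those of the frame-shifting distances on both sides, and 4.72 points at 18 nt. In mog-5 the corresponding values were 5.7, 4.86, 5.51 and 1.74 points. Those at 9, 12 and 15 nt were raised by mog-5 replicate 2, at 8.21, 6.945 and 7.94 points. Replicates 1 and 3 stood at 4.95 and 3.94 points at 9 nt, 4.22 and 3.42 at 12 nt, and 4.47 and 4.12 at 15 nt. At 18 nt the sacy-1 mean lay below the 5.44 points at 11 nt. The mog-5 mean at 18 nt lay below the 2.05 to 2.3 points of the frame-shifting distances from 10 to 14 nt. The frame-shifting pairs at 7 and 8 nt had sacy-1 means of 5.03 and 3.75 points, close to those at 10 to 13 nt. The medians in sacy-1 were 5.89 points at 9 nt, 3.29 at 12 nt, 1.01 at 15 nt and 1.21 at 18 nt, so that at 15 nt lay below that at 14 nt. The share of pairs higher at 15 nt, 72%, was also below the 90.6% at 14 nt. These values are a description over events and no test of the difference between distances was made.

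**Figure D4:**
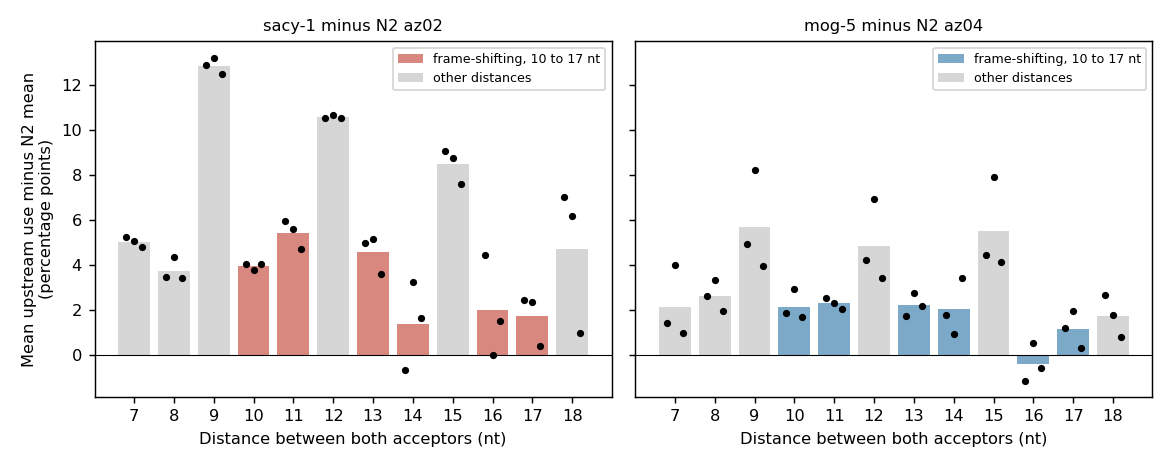
Mean upstream use in each mutant minus that of its N2 set (vertical axis, percentage points) for acceptor pairs at each distance from 7 to 18 nt. Bars are means over 3 libraries, points the single libraries, and colour marks the frame-shifting distances of 10 to 17 nt. Bars at 9, 12 and 15 nt, up to 12.9 points in sacy-1, stand above the coloured bars, which reach at most 5.44 points in sacy-1 and 2.3 points in mog-5.

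Frame-shifting and in-frame pairs also differed in their wild-type level, which limits how far a difference in points can be compared. Median upstream use in N2 az02 was 1% for these pairs, 2.4% for pairs 7 or 8 nt apart and 9.76% for pairs 12, 15 or 18 nt apart. Pairs were therefore also viewed by their level in the wild-type set outside the comparison. Where N2 az04 use was below 1%, the mean sacy-1 difference was 2.31 points over 174 of these pairs and 1.67 points over 89 in-frame pairs. Between 5% and 25% it was 8.38 points over 36 pairs against 18.5 points over 70 in-frame pairs, and 5 and 27 of them were called. Between 25% and 75% it was 12.3 points over 22 pairs against 17.7 points over 77, with 2 and 24 called. For mog-5, by the level in N2 az02, the means at 5% to 25% were 5.15 points over 28 pairs and 8.89 points over 77.

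Pairs that wild type spliced upstream differed little in sacy-1. Of the 60 pairs at 75% or more in N2 az04, mean upstream use was 94.1% in N2 az02 against 96.6% in sacy-1, and 8 leaned upstream and 0 downstream at an unadjusted p below 0.05. In-frame pairs at that level gave 8 and 3 of 61, and pairs 7 or 8 nt apart gave 9 and 1 of 63. At the other end, 45 of the 174 pairs below 1% leaned upstream and 0 downstream, with means of 0.396% in N2 az02 and 2.7% in sacy-1. That upstream share, 25.9%, was near the 22.5% of in-frame pairs and the 21.8% of pairs 7 or 8 nt apart below 1%. Pairs below 1% had almost no room to fall before the limit value of 0.1%, so the lack of downstream leans there says little about direction. At 75% or more there was room to fall, but the upstream share, 13.3%, was near the 13.1% and 14.3% of those other classes. It is no feature of these pairs.

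Most of these introns were short, as is usual in the worm. The upstream form had a median intron of 49 nt, from 32 nt to 6048 nt, and 206 of the 369 were under 60 nt. Upstream use was lowest where the upstream intron was shortest. With under 40 nt left, mean use was 3.86% in N2 az02 against 6.62% in sacy-1 (61 pairs tested), and 25.1% against 30.4% at 40 to 59 nt (143 pairs). It was 21% and 23.6% at 60 to 299 nt (64 pairs) and 23.1% and 26.6% at 300 nt or more (94 pairs). The share of pairs higher in sacy-1 was 90.2%, 82.5%, 84.4% and 92.5% in the same order.

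By chromosome, the share of pairs with a higher mean in sacy-1 ran from 76.7% on chromosome I to 91% on chromosome III. Calls were 4 of 42 tested on chromosome X, 3 of 64 on II, 3 of 72 on V, 2 of 60 on I, 1 of 67 on III and 0 of 57 on IV. On chromosome IV, 10 pairs still leaned upstream at an unadjusted p below 0.05, and the mean difference was 1.44 points. The direction was therefore common to all chromosomes listed, while calls were too few to rank them.

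Some pairs share their donor with other acceptors, so their values are not independent. At 311 donors the pair was the sole alternative 3′ event, and 41 pairs lay at donors with 3 events, each built from 3 acceptors. The third acceptor lay between the other two in 21 cases, downstream of both in 11 and upstream of both in 9. Pairs alone at their donor were higher in sacy-1 in 89.2% of 306 tested and those at 3-event donors in 74.4% of 39. A3.00872, A3.01649 and A3.00696 are of the second kind.

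One donor on chromosome II, minus strand, at 14638144, carried 49 alternative 3′ events, 7 of them frame-shifting pairs 10 to 17 nt apart. None was called. A3.01178 there had 66.7%, 99.9% and 33.3% upstream use in N2 az02 and 25%, 0.1% and 99.9% in sacy-1, a difference of -25 points (limma adjusted p = 0.761). A3.01176 had 40%, 42.9% and 33.3% in N2 az04 and 20%, 33.3% and 33.3% in mog-5 (-9.84 points, adjusted p = 0.461). At both pairs the groups overlapped or met. Leaving these 7 pairs out left 310 of 355 pairs higher in sacy-1 and the same 13 calls.

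Differences towards the downstream acceptor were few and uneven. The most negative in sacy-1 was at A3.02022, a pair 14 nt apart on chromosome IV, with 50%, 0.1% and 75% in N2 az02 and 0.1%, 12.5% and 20% in sacy-1 (-30.8 points, limma adjusted p = 0.5). A3.02074 on chromosome IV had 22.2%, 18.2% and 28.6% in N2 az02 and 0.1%, 42.9% and 0.1% in sacy-1 (-8.64 points, adjusted p = 0.806). In mog-5 the most negative was A3.00561 on chromosome I, with 37.5%, 86.4% and 99.9% in N2 az04 and 66.7%, 50% and 58.3% in mog-5 (-16.2 points, adjusted p = 0.78). It was followed by A3.02046 on chromosome IV, with 0.1%, 20% and 60% against 0.1%, 25% and 10% (-15 points, adjusted p = 0.796). Groups overlapped at each of these pairs.

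The mutants were compared with separate wild-type libraries, so their differences can be set side by side. Of 359 pairs tested in both, 256 had a higher mean in both mutants and 12 a lower mean in both. That is 71.3% higher in both, where 86.6% were higher in sacy-1 and 80.2% in mog-5, against 64.1% higher in both over alternative 3′ events and 51.7% over all events. Of the 88 pairs leaning upstream in sacy-1 at an unadjusted p below 0.05, 38 did so in mog-5 too, which is 43.2% of the sacy-1 pairs and 54.3% of the 70 mog-5 pairs. Over alternative 3′ events these shares were 41.4% and 59.8%, so the overlap is no feature of the frame-shifting pairs. Across these 359 pairs the differences had a Pearson correlation of 0.65 and a Spearman correlation of 0.54, a description over sites that share libraries within each mutant, and over alternative 3′ events the values were 0.59 and 0.51. The sacy-1 difference was the larger at 258 pairs and the mog-5 difference at 100. For comparison, the sacy-1 difference was the larger at 235 of 334 in-frame pairs 12, 15 or 18 nt apart. The same held for 2199 of 3345 alternative 3′ events and 3031 of 5019 events of the catalogue.

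**Figure D5:**
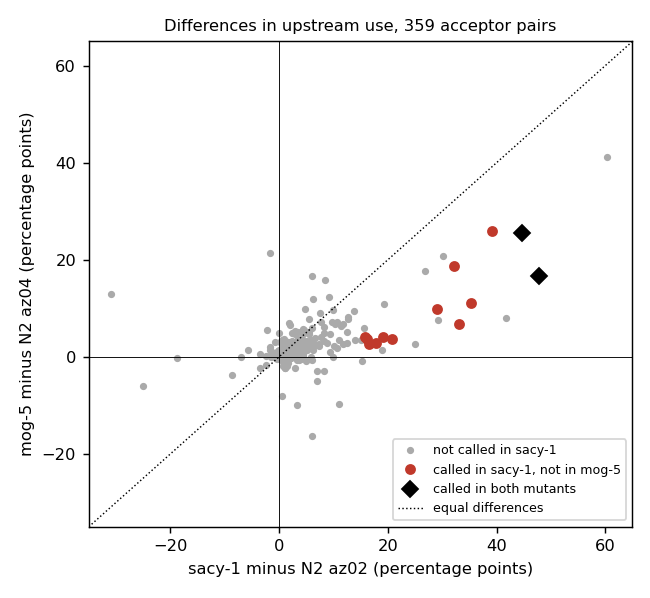
Difference in upstream use in sacy-1 (horizontal axis) and mog-5 (vertical axis), both in percentage points, for 359 acceptor pairs tested in both mutants. Red points are the pairs called in sacy-1 but not in mog-5, black diamonds the 2 called in both, and the dotted line marks equal differences. All 13 called pairs lie above 0 on both axes and below the dotted line. They were picked by a large sacy-1 difference, which favours a place to the right and below that line.

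Whether the effects differed was tested as an interaction in 1 limma fit of all 12 libraries. Of 359 pairs 1 was called, against 1.49% of all events tested, of which 1.43% had the smaller effect in mog-5 and 0.0598% the larger. Without a minimum difference 10 had an adjusted p below 0.05, against 2.47%, and in all 10 the sacy-1 effect was the larger. At an unadjusted p below 0.05 the mog-5 effect was smaller in 39 pairs and larger in 3, against 10% and 2.53% of all events. The called pair was A3.02895, where the mog-5 effect was smaller by 19.1 points (interaction -19.1, SE 3.53, limma adjusted p = 0.025). Upstream use in sacy-1 stood at 99.9% there, and the N2 az02 and N2 az04 means were 55.2% and 67.3%, so the largest possible rise was not the same.

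The smallest interaction p-value was at A3.03038, a pair 11 nt apart on chromosome X, plus strand, at 3285241 to 3285416. This pair has acceptors at 3285355 and 3285366 and an upstream intron of 39 nt. Its upstream acceptor stood at 10%, 10.5% and 9.76% in sacy-1 and at 0.1% in each of the other 9 libraries, mog-5 included (interaction -10 points, limma adjusted p = 2.74e-06). The SD was 0 in the other 3 groups, so the p-value leaned on the spread of other events. Depth at this pair is unknown. A3.00047, 10 nt apart on chromosome I at 1967798 to 1969905, was similar on a smaller scale. It stood at 4.76%, 6.85% and 5.81% in sacy-1, at 0.1% in N2 az02, at 0.68%, 0.77% and 0.43% in N2 az04 and at 0.55%, 0.1% and 0.1% in mog-5 (interaction -6.08 points, adjusted p = 0.00197). The 10 nt pairs A3.00971 and A3.00171 had interactions of -14 points (adjusted p = 0.00379, and 0.0509 after the arcsine square root transform) and -14.97 points (adjusted p = 0.00418). These 4 pairs fell short of 15 points and were not called.

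Other readouts at these introns were few. Of 879 retained introns in the authors' Ensembl catalogue 1 was the intron of such a pair, the upstream form of A3.01193. Its retention was 9.32%, 5.56% and 9.94% in N2 az02 and 4.96%, 10.8% and 5.64% in sacy-1, which overlapped. It was 7.05%, 6.39% and 6.56% in N2 az04 and 10.9%, 11.1% and 12% in mog-5, all above wild type but without a call (4.68 points, limma adjusted p = 0.101 over that catalogue). A further 9 alternative last exon events rested on the same acceptors as 7 of the pairs, A3.00872 among them, and are not separate measurements.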

How the data were processed

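For each library the authors deposited 2 event lists, 24 in all, and per the file headers the coordinates are those of ce10. Per the submitters' processing notes Bowtie2, STAR and SAMtools were used, without versions or roles. Each list gives a deposited score for the included and the excluded form of an event. In the catalogue built from the libraries' introns both scores sum to 1000 throughout, and how reads were turned into scores is not given in the sources used here. Upstream use was the included score over that sum, in percent. For alternative 5′ events the same value is the use of the form with the shorter intron. No read counts were used, so depth is unknown, and no interval or detection limit is given. Events were tested when listed in all libraries compared. The test was limma (version 3.58.1, run under R 4.3.3) with group as the sole term, fitted on all alternative 3′ and 5′ events, with Benjamini-Hochberg adjustment over all of them, and the script was tested on simulated data. The Ensembl catalogue was fitted alone.

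The N2 set of each mutant was taken from the library numbers. Replicates are numbered by accession order. Between any 2 libraries of a group 66.3% to 94.7% of the 359 pairs differed, so none was a copy. Events named were the 12 largest calls in sacy-1, all calls in mog-5, the 3 most negative differences per mutant, the largest sacy-1 difference at each distance and the 3 smallest interaction p-values, 1 per locus. The pairs and lists were chosen with earlier results of these data known. Events carry no gene names in the files, and positions are used as the files give them. Alternatives were the scale, minimum difference, variance trend, a 5% to 95% filter, other controls and each library left out.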

Additional observations from a re-analysis of the deposited data

Results flagged for a closer look

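The difference between both mutant effects had an adjusted p below 0.05 at 5 of the pairs named above when no minimum difference was asked, each with the smaller effect in mog-5. Only A3.02895 also reached 15 points and was called. At A3.03038 the mog-5 effect minus the sacy-1 effect was -9.997 percentage points, with all mog-5 libraries at the 0.1% listing of wild type. At A3.00047 it was -6.08 points, at A3.00971 -14 points, with an adjusted p of 0.0509 after an arcsine square root transform, and at A3.00171 -14.97 points. At A3.02895 it was -19.1 points, with sacy-1 at 99.9% throughout. Groups of 3 libraries are too small to single out a library.

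The A3.02895 call was lost without N2 az02 replicate 1 (-17.6 points) or 3 (-18.2), without any 1 sacy-1 replicate (-19.1 each), without N2 az04 replicate 2 (-19.1) or 3 (-17.6) and without mog-5 replicate 1 (-17.8) or 2 (-18.4).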

How the results depend on the processing

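No paired analysis was possible because the library numbers differ between groups. Against 13 sacy-1 calls, 30 passed with no minimum difference, and leaving out 1 library gave 7 to 11, with 6 of the 13 held in every such fit. For mog-5, with 2 calls, no minimum gave 6, N2 az02 as control 4, all 6 N2 libraries 7, and leaving out 1 library 0 to 1. Between the N2 sets, with 0 calls, leaving out 1 library gave 0 to 1. The interaction, with 1 call, gave 2 on the arcsine scale, 3 with a 10 point minimum, 10 with none, 2 with the 5% to 95% filter, 2 over alternative 3′ events and 0 to 2 with 1 library left out.

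The following counts were varied after the data were seen. The 5% to 95% filter, which left 99, 88 and 78 pairs, gave 84, 70 and 48 pairs higher in sacy-1, mog-5 and N2 az04, and 34, 15 and 8 leaning upstream at an unadjusted p below 0.05. Downstream leans between the N2 sets were 1 with that filter and 5 each on the arcsine scale, with a variance trend and in 1 fit of all libraries. With 1 library left out, pairs leaning upstream numbered 64 to 88 in sacy-1, 41 to 80 in mog-5 and 10 to 24 between the N2 sets, and pairs leaning downstream 1 to 2, 0 to 3 and 4 to 8. All 6 N2 libraries as control gave 135 upstream in sacy-1. Downstream leans in sacy-1 were 1 in 1 fit of all libraries and 3 against N2 az04, and in mog-5 4 against N2 az02. Pairs at 0.1% in wild type and above it in the group were 55 to 72, 25 to 32 and 10 to 18 with 1 library left out, and 29 and 14 against all 6 N2 libraries. Pairs with a higher mean were 299 to 316, 271 to 293 and 160 to 181 with 1 library left out.

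Mean upstream use with 1 event per locus was 19.4% in N2 az02, 23.4% in sacy-1 and 20.2% in N2 az04, and medians were 0.547%, 3.72%, 0.917% and 2.51% in N2 az02, sacy-1, N2 az04 and mog-5. Uncalled differences that changed sign were sacy-1 against N2 az04 at A3.01178 (5.16 points), A3.02074 (3.94) and A3.02478 (-35.5, and -2.22 against all 6 N2 libraries). In mog-5 they were A3.00047 (0.15) and A3.00561 (11) against N2 az02 and A3.02046 without N2 az04 replicate 3 (1.65, the highest of values from -28.3 with 1 library left out). The cause was not tested. Unknown depth limits every value at 0.1% or 99.9%, and no interval can be put on them.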
